A study of Mus musculus with 10 samples.

Results

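Glycerol kinase (Gk) was measured by 1 probe of the 59709 on the array, printed as 20 spots per array and annotated to the RefSeq transcript NM_008194.3. It is 1 of 112 genes that could be named on the array. It was taken by its probe identity, with earlier results of these data known. Of 10 arrays, 1 per sample, 4 held RNA of wild-type mouse brown adipocytes in culture, at days 0, 3, 5 and 7 of differentiation. The other 6 held fat of wild-type mice on chow after daily intraperitoneal injections for 7 days. They comprised white fat after CL316,243 at 1 mg/kg (CL, an agonist of the β3-adrenergic receptor), brown fat after saline and white fat after saline, with 2 arrays each. The labels call these arrays biological replicates and do not say whether each was 1 mouse or a pool. The p-values therefore concern spread between arrays, in an estimate that also draws on the other probes tested. No group received CL in brown fat, and the sources used here do not give the fat depot, the age of the mice or the origin of the cells. The labels name whole tissue and no sorting of cells, and in such RNA fewer cells of a type and less RNA per cell cannot be told apart.

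Glycerol kinase uses ATP to phosphorylate glycerol to glycerol 3-phosphate, the backbone onto which fatty acids are esterified in triglyceride synthesis. White adipocytes are known for little of this activity, so that glycerol freed by lipolysis mostly leaves the cell and is taken up by the liver. Brown adipocytes are known for more of it, which lets them return glycerol to triglyceride while lipolysis runs. β3-adrenergic agonists stimulate lipolysis in adipocytes and thermogenesis in brown fat.

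Gk lies on chromosome X. RefSeq lists 5 curated and 3 predicted transcripts of it, and a single probe cannot separate them. The start of the gene is shown because it is where transcription of the measured RNA is annotated to begin. The stretch is chrX:85776810-85777069 of GRCm38.p6 on the minus strand, credited to RefSeq, with 250 bases before the start and 10 of the transcript. Capitals mark an E-box (CACGTG, bases 193 to 198), the kind of site that basic helix-loop-helix factors bind, and the core letters of a cyclic AMP response element (TGACG, bases 247 to 251), the kind of element that β-adrenergic signalling is known to act through.

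Gk promoter: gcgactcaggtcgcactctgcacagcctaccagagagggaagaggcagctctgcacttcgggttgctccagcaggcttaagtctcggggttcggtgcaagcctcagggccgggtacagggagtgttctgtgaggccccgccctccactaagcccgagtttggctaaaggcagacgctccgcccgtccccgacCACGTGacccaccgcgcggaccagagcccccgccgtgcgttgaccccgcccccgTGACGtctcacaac

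Motifs were searched on both strands of 300-base windows around gene starts. An E-box was held by 7.15% of 32851 such windows, and TGACG by 20.8%. The Gk window also held 3 copies of the GC box GGGCGG on the opposite strand, starting at bases 137, 178 and 238, a motif found in 35.7% of windows. The complete cyclic AMP response element TGACGTCA, the nuclear receptor core AGGTCA and its direct repeat with 1 base between (DR1, the element bound by PPAR factors) had 0 matches in it, against 1.79%, 16.3% and 0.0396% of all windows. These are matches of letters, and no factor binding was measured.

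Gk RNA was highest in brown fat and lowest in saline white fat, with the cultured cells and CL-treated white fat between them. Levels are log2 of the background-subtracted signal less the 75th percentile of all 59709 probes on that array, so that 0 is a signal equal to that percentile. In the cells Gk stood at -0.27 on day 0, -0.84 on day 3, -0.94 on day 5 and -0.41 on day 7. In CL-treated white fat it stood at -1.10 on both arrays, in brown fat at 0.59 and 0.80, and in saline white fat at -1.79 and -1.67. Only the brown fat arrays had Gk above their 75th percentile, and no array of 1 tissue group lay within the range of another.

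**Figure D1:**
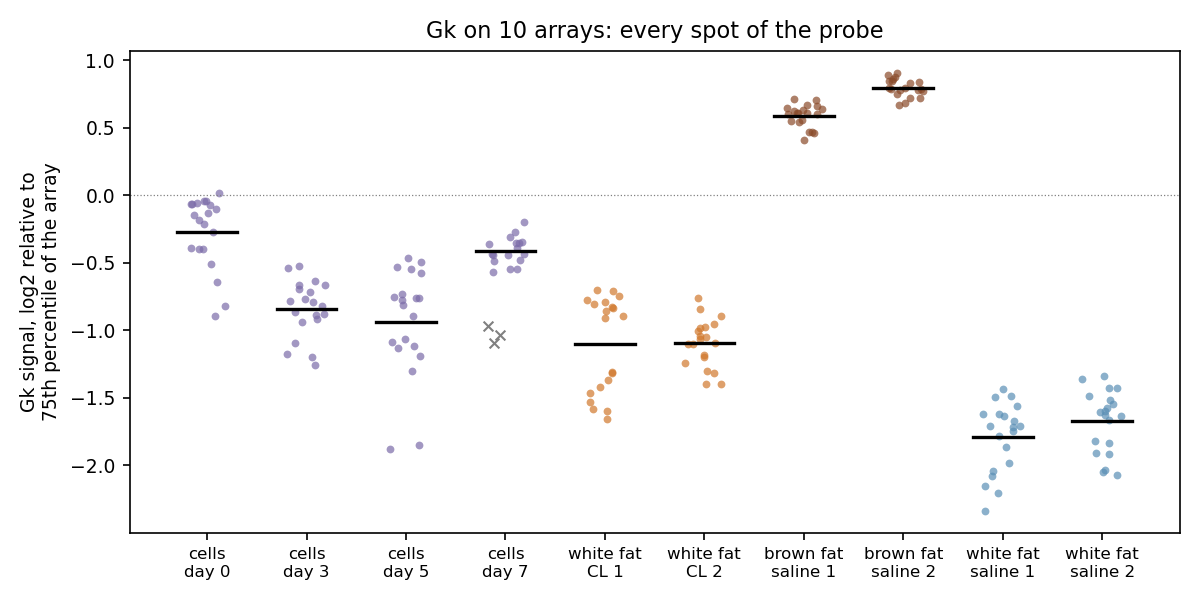
Level of each Gk spot (log2 signal minus the array's 75th percentile) on the 10 arrays, with a bar at each array's mean and crosses for the 3 day 7 spots left out as outliers. The brown fat spots lie between 0.41 and 0.91, above every spot of the other arrays, and the saline white fat spots lie between -2.34 and -1.34.

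All 20 Gk spots were well above background on each array. Mean signals are geometric means over the spots without an outlier flag, which leaves out 3 spots on day 7. The mean signal was 276, 211, 219 and 266 intensity units on days 0, 3, 5 and 7. It was 272 and 110 in CL-treated white fat, 321 and 471 in brown fat, and 89.2 and 107 in saline white fat. In the last group 3.08% and 5.33% of the 1200 negative control spots exceeded the Gk mean of the array. The same share was 0.0833% and 2.75% on the CL arrays and 0.167% and 0.0833% on the brown fat arrays. On days 0, 3, 5 and 7 it was 2.50%, 0.583%, 0.0833% and 0%. The overlap with the brightest negative control spots was thus largest in saline white fat, followed by CL replicate 2 and day 0.

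In saline-injected mice, the brown against white fat comparison asks how the depots differ without the drug. Gk averaged 0.69 ± 0.15 in brown fat and -1.73 ± 0.09 in saline white fat (log2 level, SD, n = 2 each), and both brown fat arrays were above both white fat arrays. Gk was 5.37-fold higher in brown fat (95% confidence interval 3.10 to 9.31-fold, log2 difference 2.43, SE 0.34, limma adjusted p = 0.0117). Of the 43525 probes tested, 10.4% were called in either direction and 5.53% were called higher in brown fat. A difference at least as large in the same direction was found for 1.64% of probes.

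The brown fat difference was present at each spot position on the array. When every spot was compared with the spot at the same place on the other arrays, Gk was higher in brown fat at 20 of 20 positions, by log2 2.10 to 2.87 with a median of 2.37. Those spots are repeats of 1 probe on the same arrays and not further samples. The call needed all 4 saline arrays. The limma adjusted p was 0.0941 and 0.0760 without brown fat replicate 1 or 2, and 0.110 and 0.0673 without white fat replicate 1 or 2, with log2 differences of 2.32 to 2.53.

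CL-treated against saline white fat asks how white fat responds to 7 days of β3-adrenergic stimulation. Gk averaged -1.10 ± 0.01 in CL-treated white fat and -1.73 ± 0.09 in saline white fat (log2 level, SD, n = 2 each), and the groups did not overlap. The log2 difference was 0.63 (SE 0.34), or 1.55-fold, and it did not pass the test (limma adjusted p = 0.952). Its 95% confidence interval ran from 0.894 to 2.69-fold, so neither equal levels nor a 2.69-fold higher level lay outside it. None of the 43525 probes were called by limma (0%), 2375 had an unadjusted p under 0.05, and Gk had an unadjusted p of 0.103. A difference at least as large in the same direction was found for 7.56% of probes. The barcode field of the scanner headers holds 2 numbers for each array, and no meaning is assigned to them here. The first was 2 for the CL arrays and 1 for all saline arrays, so the drug and that number cannot be told apart. The second was 1 and 2 for brown fat and 3 and 4 for saline white fat. Tissue and the second number cannot be told apart in the comparison of brown with saline white fat either.

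The Gk spots were higher after CL at 20 of 20 positions, by log2 0.23 to 0.96 with a median of 0.65. All spots of an array share its scaling, so a shift of the scale moves every position together. They are not further samples. The closeness of the CL arrays to each other depended on the scale. Their mean signals of 272 and 110 went with 75th percentiles of 585 and 235 intensity units. The levels relative to those percentiles differed by 0.01. In saline white fat, signals of 89.2 and 107 went with 75th percentiles of 309 and 342. CL replicate 2, at 110, thus had nearly the signal of saline white fat replicate 2 and a lower percentile. Scaled instead to the mean of 9 reference gene probes (Actb, B2m, Gapdh, Gusb, Hprt, Ppia, Rpl13a, Tbp and Tfrc), Gk was at -7.17 and -7.71 on the CL arrays, a gap of 0.54. The 9 probes themselves averaged 6.07 and 6.61 above the percentile on those arrays. Across all tested probes the CL arrays also differed most, with 35.0% of probes at least 2-fold apart, against 8.86% in brown fat and 4.42% in saline white fat.

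On the reference gene scale the order of the tissues was kept. Gk was at -5.36 and -5.26 in brown fat and -8.02 and -7.95 in saline white fat, and both CL arrays lay between these groups. The log2 difference on that scale was 2.67 for brown against saline white fat (limma adjusted p = 0.0110) and 0.54 for CL-treated against saline white fat (limma adjusted p = 0.646).

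**Figure D2:**
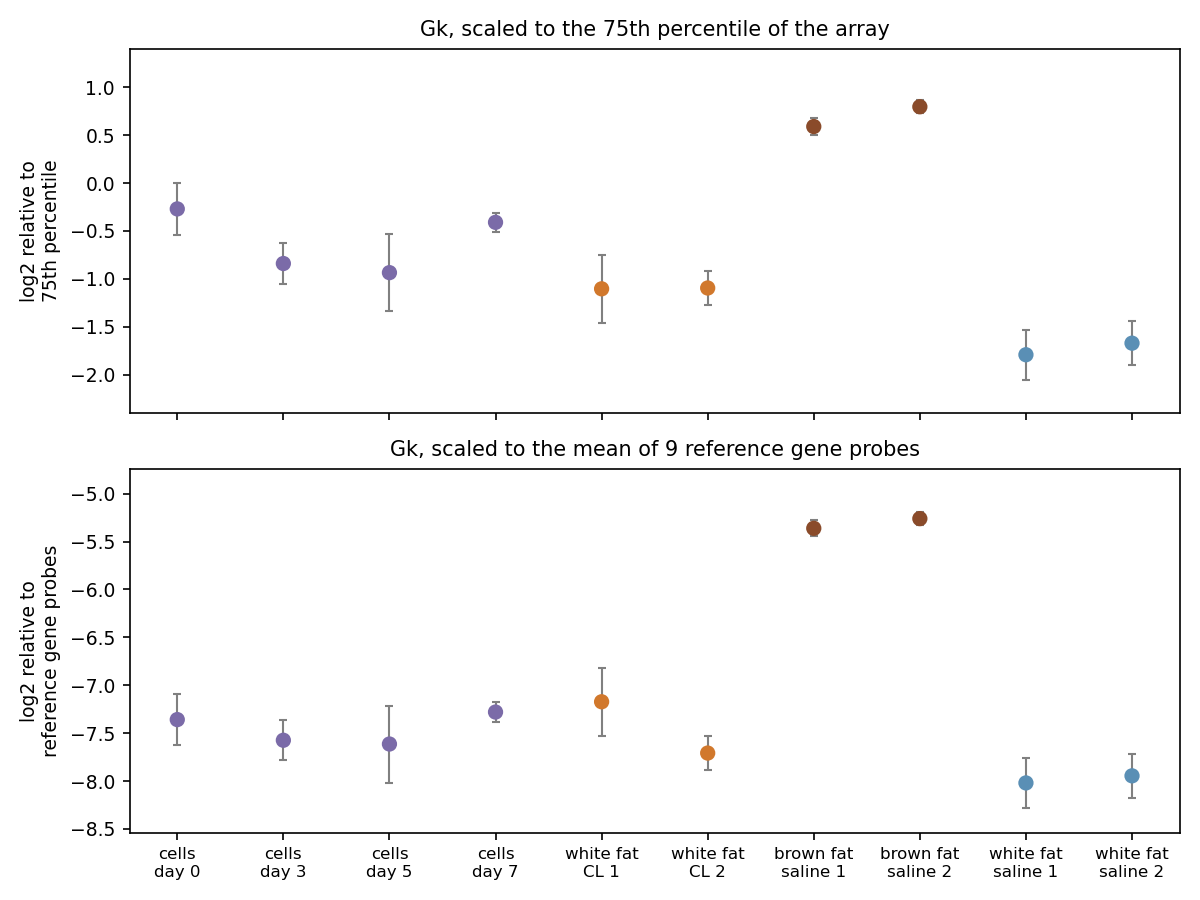
Gk log2 level on each array relative to the array's 75th percentile and relative to the mean of 9 reference gene probes, with the SD over spots as bars. Brown fat is highest on both scales, and the CL arrays are 0.01 apart on the first scale and 0.54 apart on the second.

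CL-treated white fat against brown fat asks how near treated white fat comes to brown fat. Gk was 3.47-fold lower in CL-treated white fat, with a mean difference of -1.79 on the log2 scale (SE 0.34, 95% confidence interval -2.59 to -1.0, limma adjusted p = 0.0386). The CL spots lay between -1.66 and -0.70 and the brown fat spots between 0.41 and 0.91. All 20 positions were lower in CL-treated white fat than in brown fat. Of the tested probes 3.5% were called in either direction and 1.51% were called lower in CL-treated white fat. The call was lost with no filter on dim probes (limma adjusted p = 0.0865) and with array weights (limma adjusted p = 0.123). It was also lost without either brown fat array (limma adjusted p = 0.253 and 0.191 without replicate 1 or 2) or either saline white fat array (0.0937 in both cases), whose spread enters the fit.

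**Figure D3:**
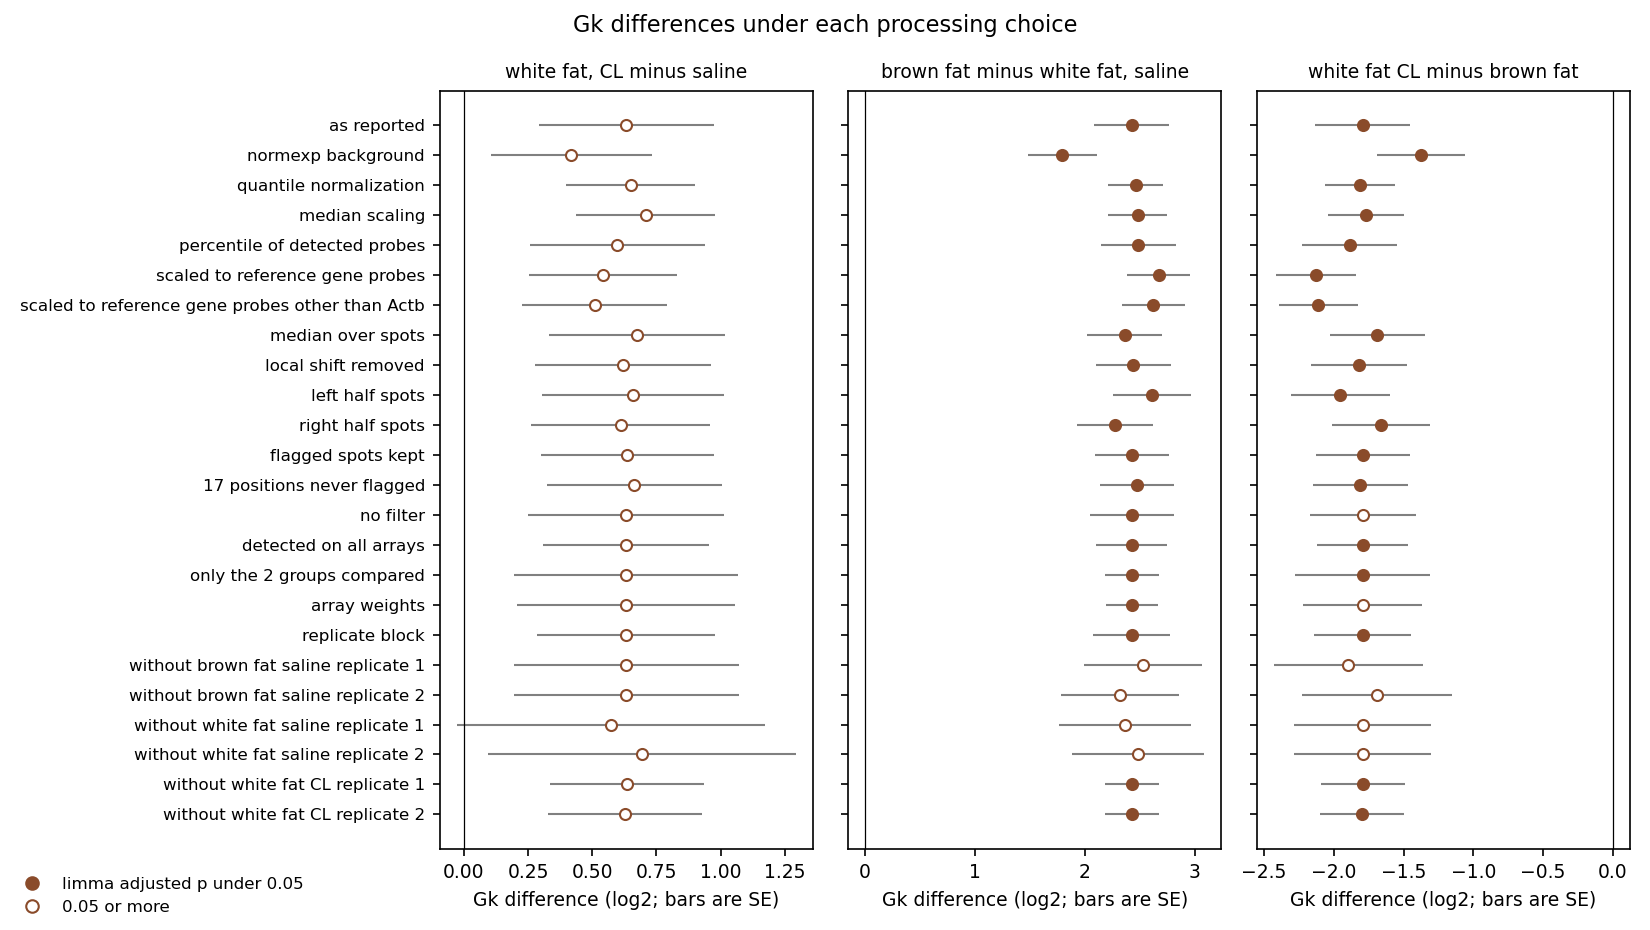
Gk log2 differences for the 3 tissue comparisons under each processing setting, with limma standard errors as bars. Brown minus saline white fat stays between 1.79 and 2.67, CL-treated minus saline white fat between 0.42 and 0.71, and CL-treated white fat minus brown fat between -2.13 and -1.37.

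The Gk spots of 1 array were not equally bright, and the unevenness differed between arrays. On the CL arrays the brightest spot had 1.95 and 1.56 times the signal of the dimmest, on the brown fat arrays 1.23 and 1.18 times, and on the saline white fat arrays 1.87 and 1.67 times. On days 0, 3, 5 and 7 the ratio was 1.87, 1.66, 2.67 and 1.29. Part of this ran across the array, where 9 spots lie on the left side and 11 on the right.

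On CL replicate 1 the right spots averaged -0.80 and the left spots -1.47, a gap of 0.67, while on CL replicate 2 the gap was -0.02. The gap was 0.04 and 0.03 in brown fat, 0.38 and 0.37 in saline white fat, and 0.04, 0.04, 0.33 and 0.12 on days 0, 3, 5 and 7. The other 14 probes with 20 spots had gaps of -0.14 to 0.45 on CL replicate 1, with a median of -0.06. Gk had the widest right-side excess among these probes there.

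Computed from the left spots alone, the log2 difference of CL-treated minus saline white fat was 0.66 and that of brown minus saline white fat was 2.61. From the right spots alone they were 0.61 and 2.27. The 2 sides of the array thus gave differences in the same direction. Brown minus saline white fat passed the test from either side (limma adjusted p = 0.0105 and 0.0155).

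**Figure D4:**
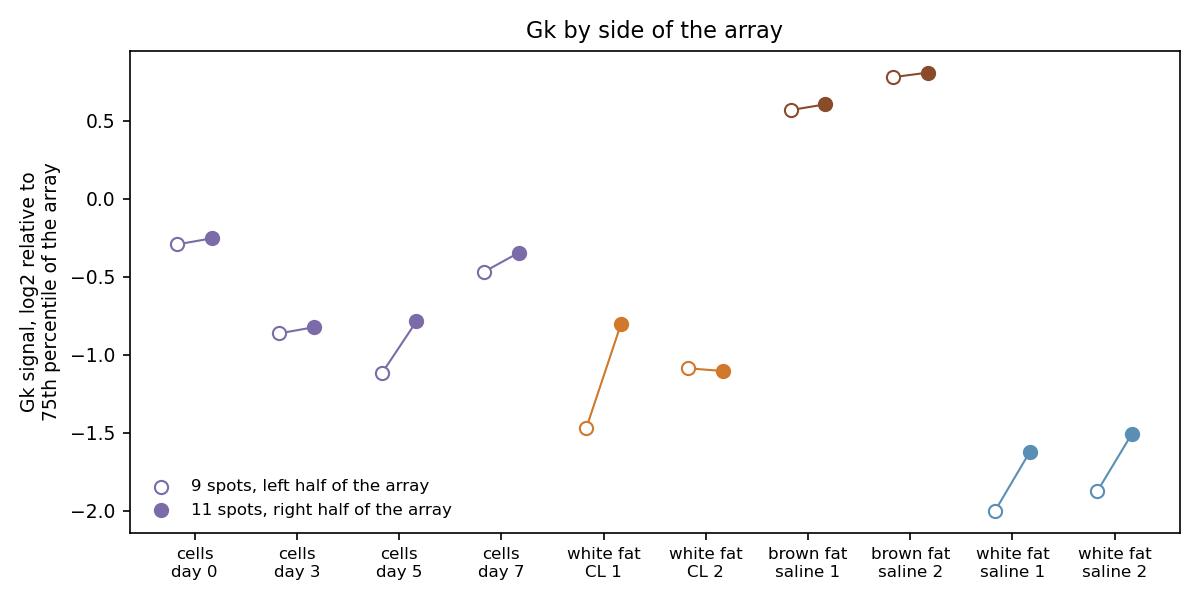
Mean Gk log2 level of the 9 left and the 11 right spots on each array. The sides are 0.67 apart on CL replicate 1 and 0.03 to 0.04 apart on the brown fat arrays.

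In the cells, the day 0 array had the highest Gk level of the 4 days and the day 5 array the lowest. With 1 array per day there is no replicate check, and the spread between cultures was not measured. The second of the 2 barcode numbers was 1, 2, 3 and 4 on days 0, 3, 5 and 7. Culture day and that number cannot be told apart. Relative to day 0 the level differed by log2 -0.57 on day 3 (1.48-fold lower), -0.67 on day 5 (1.59-fold lower) and -0.14 on day 7 (1.1-fold lower). The spots of 1 array had an SD of 0.27, 0.21, 0.40 and 0.10 on days 0, 3, 5 and 7. Those SDs cover repeat spots of 1 probe only and give no measure of how cultures vary.

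Position by position, 20 of 20 spots were lower on day 3 than on day 0, 17 of 20 on day 5, and 16 of the 17 spots left on day 7. A 1.5-fold lower signal than on day 0 was common on the array, at 21.5% of 48586 probes on day 3, 33.7% on day 5 and 22.6% on day 7, and Gk passed that fold on day 5 only. Relative to the 9 reference gene probes, the differences from day 0 were smaller, at -0.22 on day 3, -0.25 on day 5 and 0.08 on day 7. The mean of those probes itself differed from day 0 by log2 -0.35, -0.41 and -0.22. Much of that came from Actb, the cytoplasmic actin, whose own differences were -2.24, -1.80 and -1.16. Without Actb, the Gk differences on the reference gene scale were -0.45 on day 3, -0.43 on day 5 and -0.04 on day 7. Tfrc moved the other way, at 0.58, 1.14 and 1.15, and without it the Gk differences were -0.10, -0.06 and 0.25. With each of the 9 genes left out in turn, Gk on days 3 and 5 stayed below day 0, and the sign of the day 7 difference depended on the genes used. A linear trend over the 4 days had a slope of -0.03 per day (SE 0.08, 95% confidence interval -0.23 to 0.16, limma adjusted p = 0.966, 1 array per day). Its SE, interval and p-value reflect departures from a straight line in time, and not replicate spread. Of the 48624 probes in the trend fit, 0% were called by limma and 4323 had an unadjusted p under 0.05.

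On day 7, 3 of the 20 Gk spots carried the scanner software's outlier flag and were left out. The same 3 positions were dim on days 0 and 3 as well, where they averaged -0.78 and -1.18 without a flag, against -0.18 and -0.78 for the other 17 positions. On day 5 they averaged -0.53, against -1.01 for the other 17, and on day 7 -1.03, against -0.41. Kept in, they lowered the day 7 level to -0.50. Over the 17 positions alone, the differences from day 0 were -0.60 on day 3, -0.83 on day 5 and -0.23 on day 7.

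On each of the 4 days Gk was lower in the cells than in brown fat, at every spot position. The log2 difference from the brown fat mean was -0.96 on day 0, -1.53 on day 3, -1.63 on day 5 and -1.10 on day 7, which is 2.15-fold lower on the last day. On the reference gene scale the differences were wider, at -2.05, -2.26, -2.30 and -1.97, or 3.91-fold lower on day 7. Against saline white fat the cells were higher on both scales, by 1.46, 0.89, 0.80 and 1.32 relative to the 75th percentile and by 0.62, 0.41, 0.37 and 0.70 relative to the reference genes.

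Against CL-treated white fat, the sign of the difference changed with the scale on days 3 and 5. It was 0.26 and 0.16 relative to the 75th percentile and -0.13 and -0.17 relative to the reference genes. With each reference gene left out in turn it ran from -0.33 to 0.13 on day 3 and from -0.34 to 0.02 on day 5, and it was above 0 without Rpl13a on both days and without Tfrc on day 5. The cells were scanned apart from the tissues, so culture and scan cannot be told apart, and none of these differences were tested.

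Gk was the only one of 15 probes with 20 spots to be called between brown and saline white fat. Gapdh, a glycolytic enzyme, differed by 1.09 on the log2 scale (SE 0.41, limma adjusted p = 0.130) and the transferrin receptor Tfrc by 0.96 (SE 0.37, limma adjusted p = 0.130). The lysosomal enzyme Gusb was at -1.34 (SE 0.38, limma adjusted p = 0.0628) and the purine salvage enzyme Hprt at -1.11 (SE 0.39, limma adjusted p = 0.107). For CL-treated against saline white fat the difference of Gk, 0.63, was exceeded among these probes by that of Tfrc, at 0.86 (SE 0.37, limma adjusted p = 0.912). As most of these are reference genes chosen for steady levels, their share called is no measure of the array as a whole.

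**Figure D5:**
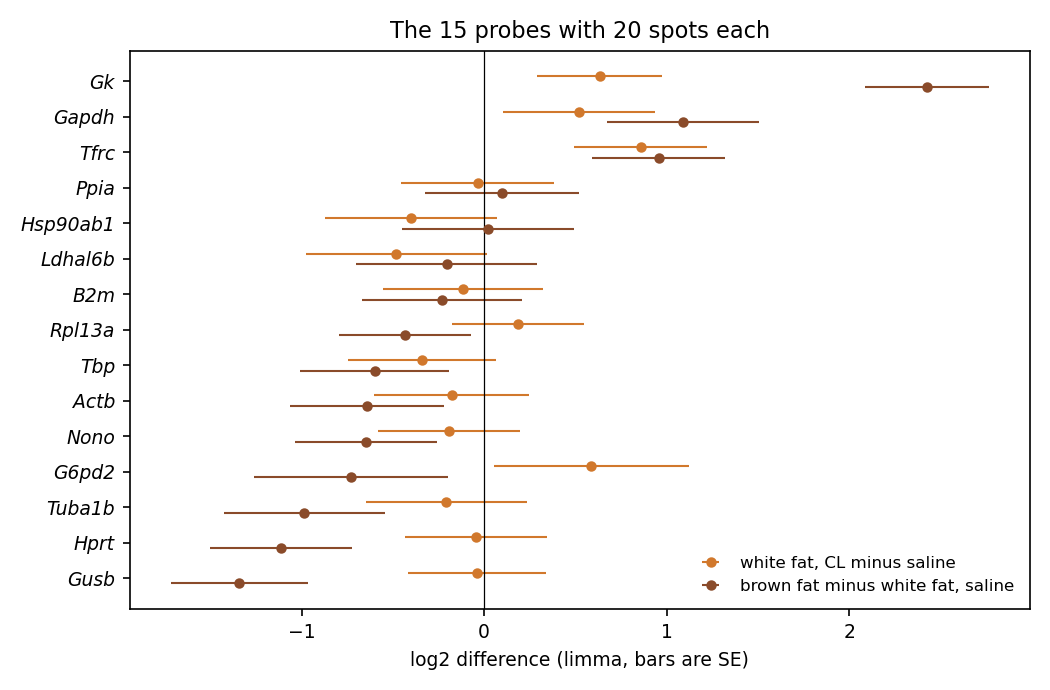
Log2 differences of the 15 probes with 20 spots for brown minus saline white fat and CL-treated minus saline white fat, with limma standard errors as bars. Gk stands at 2.43 in the first comparison, above Gapdh at 1.09, and at 0.63 in the second, below Tfrc at 0.86.

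Probes with a pattern like that of Gk were sought by Pearson's r over the 10 arrays, which share their scaling. This choice used every array, so the levels of the probes found are given as a description and no test of them stands as further support. Among 77 probes with a gene symbol, the closest were Nim1k (r = 0.735), Gapdh (0.673), H2al2b (0.632), Gm3286 (0.563) and Nlrp4g (0.542). None of the 77 reached r = 0.9. Nim1k, a gene of the protein kinase family, had a higher mean in brown than in saline white fat, by log2 1.64. In the cells it stood at -2.57, -2.50, -2.19 and -2.44 on days 0, 3, 5 and 7, lowest on the day when Gk was highest. CL-treated minus saline white fat was log2 0.34 for Nim1k and 0.52 for Gapdh. It was -0.50 for H2al2b, -0.20 for Gm3286 and -0.02 for Nlrp4g.

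Among 571 probes of transcripts known by a sequence accession, 17 (2.98%) reached r = 0.9, as did 49 of 2010 probes of lincRNA loci (2.44%) and 350 of 26819 probes without any name beyond a design number (1.31%). The closest of the first kind were EL605759 (r = 0.950), CA586630 (0.946) and AF531172 (0.942). Their mean differences were log2 1.71, 1.93 and 2.07 in brown minus saline white fat, and 0.46, 0.25 and 0.49 in CL-treated minus saline white fat.

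EL605759, picked for its likeness to Gk on these same arrays, stood at -0.72, -1.07, -1.26 and -0.86 on days 0, 3, 5 and 7. It stood at -1.58 and -1.73 in CL-treated white fat, -0.35 and -0.47 in brown fat, and -2.07 and -2.16 in saline white fat.

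Of 30 genes of glycerol and triglyceride metabolism, and of 5 names of glycerol kinase genes (older names included), Gk alone could be found by name on the array, since 116 probes of the 59709 had a gene symbol. Of the marker lists for brown (14 genes), beige (6), white (10) and pan-adipocyte genes (7), preadipocytes (10), macrophages (9), endothelium (6), muscle (8) and erythroid cells (4), 0 genes were found by name, and of 13 lymphocyte genes Ccl21b and Ccl21c were. The labelled tissues could therefore not be checked against their defining markers, and the part of other cell types in the Gk differences was not tested.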

How the data were processed

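Total RNA was labelled with Cy3 and hybridised to 1-colour Agilent arrays of an Arraystar mouse lncRNA design, per the labels. Per the file headers, Agilent Feature Extraction 11.0.1.1 produced the deposited intensity of each spot as a processed signal with its background subtracted, and set the flags used here for detection, outliers and saturation (0 spots were saturated). Version 9.1 stands in the submitters' processing notes, and the reason for the difference is not given in the sources used here. A deposited table of log2 values, made by the authors, holds no Gk probe and was not used.

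In R 4.3.3, log2 signals were averaged over the unflagged spots of each probe and the array's 75th percentile was subtracted. Probes detected (flagged well above background) on both arrays of any tissue group (43525) entered a limma 3.58.1 fit of group means to the 6 tissue arrays (residual df 3, prior df 4.46). The fit was tested on simulated data, with changes larger than the Gk differences and noise independent between arrays. That test does not cover changes as small as those of Gk. The fit draws the variance of each probe toward that of the other probes. The SE of 0.34 for Gk thus does not reflect its own array spread alone. Its SDs were 0.01 in CL-treated white fat, 0.15 in brown fat and 0.09 in saline white fat. P-values are two-sided and adjusted by Benjamini-Hochberg over these probes, with calls at 0.05. The number of arrays limits the precision. Cell arrays gave differences and a linear trend. The normexp alternative used median spot signals in place of the planned mean signals, which were not used here. The probes named for likeness were the 5 symbols and 3 accessions with the highest Pearson's r among probes well above background on all arrays. Gk, its lists and tests were chosen with earlier results of these data known. No label links arrays of the same replicate number. Their deviations from the group means correlated at 0.50 for CL-treated and saline white fat, -0.02 for brown and saline white fat, and -0.08 for CL-treated white fat and brown fat. The numbers were not treated as pairs in the fit over all 3 groups. The replicate block used as an alternative is 1 shift shared by the 3 groups, and a pairing of the white fat arrays alone was not fitted.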

Additional observations from a re-analysis of the deposited data

How the results depend on the processing

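Across 17 processing settings other than leaving out an array, Gk kept its direction in the 3 tissue comparisons. Brown minus saline white fat stayed called, at log2 1.79 to 2.67 (limma adjusted p = 0.000701 to 0.0287), and CL-treated minus saline white fat stayed not called, at 0.42 to 0.71 (limma adjusted p = 0.637 to 1.00). Leaving out 1 array gave 2.32 to 2.53 (limma adjusted p = 0.00454 to 0.110) and 0.57 to 0.69 (limma adjusted p = 0.250 to 1.00), and CL-treated white fat minus brown fat -1.9 to -1.69 (limma adjusted p = 0.0139 to 0.253). Where 1 array was left, it was assumed to vary like the other groups. The last comparison lost its call with no filter (-1.79, limma adjusted p = 0.0865) and with array weights (-1.79, 0.123). The replicate block gave limma adjusted p = 0.756, 0.0121 and 0.0370 for CL-treated minus saline white fat, brown minus saline white fat and CL-treated white fat minus brown fat. It changed no Gk call, and no label links arrays of the same number.

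With scaling to the reference genes the trend turned to 0.0037 per day (limma adjusted p = 0.998), day 3 minus day 0 became -0.22, day 5 minus day 0 -0.25 and day 7 minus brown fat -1.97 (-2.03 without Actb). Median scaling gave -0.36 for day 5 and 0.04 for day 7, each minus day 0, and the percentile of probes detected on all arrays gave -1.38 for day 7 minus brown fat, a difference that, scaled to the 75th percentile of all probes, was -1.21 to -1.0 without 1 brown fat array. The trend called 8 probes when limited to probes detected on all 4 cell arrays.

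Counts of probes called depended more on the setting. For CL-treated against saline white fat (0), normexp gave 31, probes detected on all arrays 2, the replicate block 1, and leaving out 1 array 0 to 109. For brown against saline white fat (4527), reference scaling gave 6876, no filter 1385, only the 2 groups 14260, array weights 16206, and leaving out 1 array 321 to 14222. For CL-treated white fat against brown fat (1523) these gave 4850 (4357 without Actb), 544, 2878, 267 and 203 to 11520. Reference scaling called 5126 higher and 1750 lower in brown fat, against 2409 and 2118, and 910 higher and 3940 lower in CL-treated white fat than in brown fat, against 866 and 657. It moved the median of all tested probes to 0.13 from -0.12 and to -0.36 from -0.03 in these comparisons. Without Actb the splits were 4641 and 1880, and 901 and 3456. Detection on all arrays gave 3333 higher and 1918 lower in brown fat, and 1014 and 1150 in CL-treated white fat. The causes were not tested. The reference genes without Actb, the sides of the array, the removal of local shifts and the outlier settings were chosen after seeing the data.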

Other observations

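Signal over the local background was lowest where Gk was dimmest. The Gk signal was 12, 9.57, 9.97 and 12.2 times the median local background on days 0, 3, 5 and 7, 11.3 and 4.73 times in CL-treated white fat, 13.4 and 18.8 times in brown fat, and 3.50 and 4.13 times in saline white fat. The right-side excess of Gk in saline white fat, 0.38 and 0.37, exceeded that of the other 14 probes with 20 spots, whose highest was 0.15 and 0.14 (Ldhal6b on both arrays). On day 5 it was 0.33, where the highest of the others was 0.04 (Gapdh), and on day 7 it was 0.12 against 0.03 (Tuba1b). In brown fat replicate 2 it was 0.03 against -0.06 (Ldhal6b). On CL replicate 2, brown fat replicate 1 and days 0 and 3, another of these probes had a larger gap than Gk.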
